A study of Mus musculus with 14 samples.

Results

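The mouse mitochondrial genome supplied 37 of the 47729 genes measured in these libraries. They were chosen by name, as every gene whose symbol in the authors' series-wide table begins with mt-, so no measured level entered the choice. They comprise 13 protein-coding genes, 2 ribosomal RNA (rRNA) genes and 22 transfer RNA (tRNA) genes, and all 37 were annotated on the mitochondrial chromosome (M) in GENCODE M21. Coding genes and rRNA genes are described first, and the tRNA genes apart from them.

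The libraries come from microglia, the resident macrophages of the retina, sorted as CD11b+, Fcrls+ and Ly6c- cells, 100 to 600 per retina, and were prepared with SMART-Seq2, which copies whole poly(A) transcripts of few cells into cDNA. All 14 retinas came from wild type C57BL/6 mice aged 12 weeks and gave 1 library each: 3 injected with microbeads (labelled glaucoma), 3 contralateral to such an injection, 4 with a sham injection and 4 naive ones with no treatment. The labels name no time after injection and do not tie a contralateral retina to the mouse of a microbead retina, and p-values therefore measure the spread between retinas.

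Mitochondrial DNA is a small circle present in many copies per cell. It encodes core subunits of respiratory complexes I, III and IV and of ATP synthase (complex V), and the rRNAs and tRNAs needed to translate them. Both strands are transcribed as long precursors, which are cut at the tRNAs that lie between the other genes, so that transcripts of 1 strand start out in equal amounts and differ afterwards through processing and stability. All other proteins of the respiratory chain, and the polymerase that reads the circle, are encoded in the nucleus, which also holds old insertions of mitochondrial DNA that resemble the living genes.

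One such insertion bears on most of the values below. In build mm10 (GENCODE M21), 7 unprocessed pseudogenes at chr1:24611535-24616197 on the minus strand copy stretches of 7 coding genes in their genomic order, and 5 of them have the same bases as the mitochondrial gene throughout. Gm10222 covers 294 of the 297 bases of mt-Nd4l, a small subunit of complex I at chrM:9877-10173, and it is shown because nearly all reads of that gene were given to the copy. Capitals mark the bases shared without a mismatch.
mt-Nd4l: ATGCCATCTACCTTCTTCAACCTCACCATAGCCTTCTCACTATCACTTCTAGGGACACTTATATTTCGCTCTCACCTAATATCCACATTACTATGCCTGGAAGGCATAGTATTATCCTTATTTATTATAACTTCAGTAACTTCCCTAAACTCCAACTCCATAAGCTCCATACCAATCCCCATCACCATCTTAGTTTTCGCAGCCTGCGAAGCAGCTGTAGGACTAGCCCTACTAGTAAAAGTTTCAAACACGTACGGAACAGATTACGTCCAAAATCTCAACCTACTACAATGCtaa
Gm28438 and mt-Nd3, another complex I subunit (chrM:9459-9806), differ over 345 aligned bases in 1 position only, T3C, counted from 1 at the first base of mt-Nd3. The first 28 bases of both are shown, with that base in capitals. Within the aligned stretch, which is short of the 348 bases of mt-Nd3, no other base tells a read apart.
mt-Nd3: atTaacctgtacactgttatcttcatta
Gm28438: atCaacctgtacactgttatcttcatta
The remaining copies are Gm28437 of mt-Co3 (783 bases, no mismatch), Gm28661 of mt-Co2 (681, none), Gm10925 of mt-Atp6 (678, none), Gm28439 of mt-Nd4 (876, none) and Gm29216 of mt-Co1 (483 aligned bases, 1 mismatch, A1066T). Another 8 annotated copies lie elsewhere in the genome, and those among them with counts held at most 31.5 reads in a library.

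Reads of these genes were divided between the gene and its copy, and the division changed from library to library. mt-Co3 encodes a core subunit of cytochrome c oxidase (complex IV). Its copy held 46.4 to 100.0% of their joint reads, and in contralateral 1 and naive 4 the mitochondrial gene kept 0.02 and 0.01 reads beside 461.9 and 9034.5 on Gm28437. mt-Nd4l was listed at 0 reads in 11 of 14 libraries, among them all sham and all contralateral ones, while Gm10222 held 63.0 to 375 reads. mt-Nd3 was listed at 0 in contralateral 1 and 2, where its copy had 30.0 and 12.0 reads. The copy's share ran from 7.23 to 65.1% for mt-Co1, from 0 to 58.4% for mt-Co2 and from 0 to 27.5% for mt-Atp6. Gm28439 had 0 reads in every library although its bases are those of mt-Nd4. Adding the reads of a copy to its gene brought the naive replicates closer together for these genes, but not those of every group: the coefficient of variation (SD as a percent of the mean CPM, counts scaled to library depth by TMM) over the 4 naive libraries went from 83.9 to 16.3% for mt-Co3 and from 115.7 to 12.1% for mt-Nd4l. It went from 31.4 to 20.4% for mt-Nd3. Over the 3 microbead libraries it went up, from 40.5 to 75.8% for mt-Co3 and from 103.3 to 115.5% for mt-Nd3. It went down there for mt-Co1 (54.6 to 20.8%), mt-Nd4l (173.2 to 60.1%), mt-Co2 (63.1 to 58.5%) and mt-Atp6 (19.6 to 19.3%). Over the 3 contralateral libraries it went down for mt-Co3 (114.2 to 81.7%), mt-Co1 (103.3 to 76.2%) and mt-Nd3 (173.2 to 130.0%). It went up there for mt-Co2 (69.8 to 76.4%) and mt-Atp6 (92.1 to 98.1%). Whether any of these reads came from the nuclear insertion was not tested. Values are therefore given as deposited and with copies summed, an alternative chosen after the data had been seen.

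**Figure D1:**
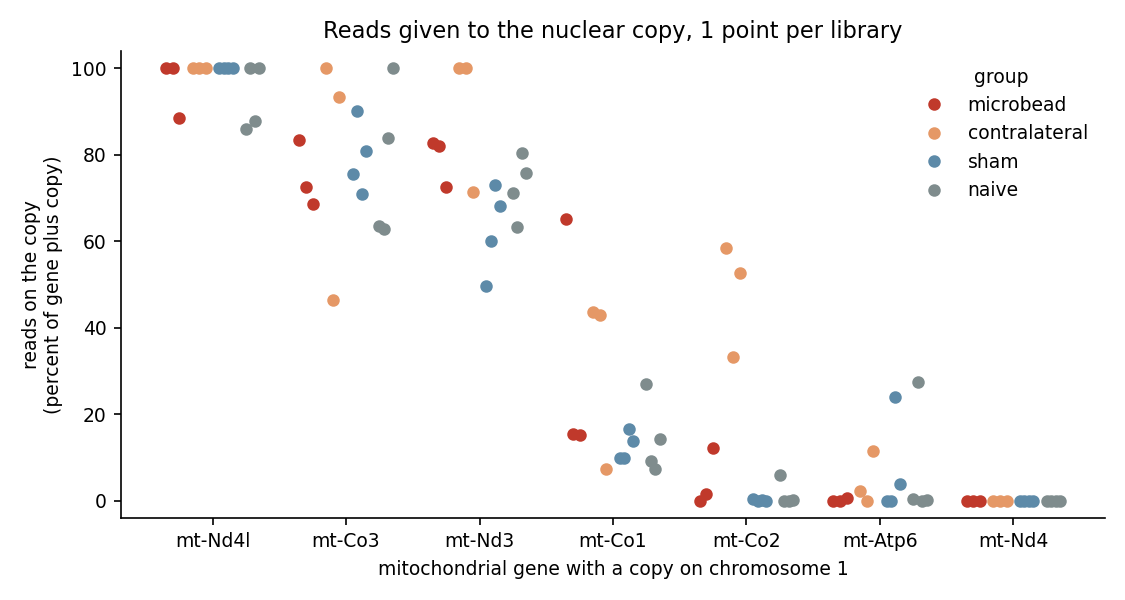
Share of reads on the nuclear copy, as a percent of the reads of gene and copy together (y axis), for 7 mitochondrial genes (x axis), 1 point per library, coloured by group. Shares near 100% for mt-Nd4l, a spread from 46.4 to 100.0% for mt-Co3, and mt-Co2 shares of 33.3 to 58.4% in the contralateral libraries against at most 12.3% elsewhere can be read from it.

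Depth ran from 1340512 to 13995779 reads assigned to genes per library. Microbead 1 (the lowest depth) and contralateral 2 stood apart from the rest: they had reads in 10167 and 10306 genes, against 13472 or more elsewhere, and a mean Spearman correlation with the other libraries of 0.665 and 0.649, against 0.743 to 0.819. Genes of at most 1000 bases were higher relative to those over 4000 bases in all 3 microbead libraries, by 1.90, 0.79 and 1.26 in log2 against the naive mean, while the sham and naive libraries lay between -0.27 and 0.16 and the contralateral ones at 0.46, 0.87 and -0.28. Microglia markers summed to 13530 to 29260 CPM in microbead and 20840 to 37870 in the other libraries, and each of the 10 marker genes had reads in all 14. Rod photoreceptor markers (14 genes) summed to 287 to 4517 CPM over all libraries, and haemoglobin and Alas2 to at most 0.68.

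The share of all reads that fell on the 37 genes was highest in microbead and lowest in contralateral libraries. It was 1.53, 2.12 and 1.48% in microbead 1 to 3, and 0.164, 0.261 and 0.786% in contralateral 1 to 3. The sham libraries held 1.51, 1.09, 1.04 and 1.00%, and the naive libraries 0.932, 0.871, 0.933 and 1.16%. Every contralateral library thus lay below every library of the other groups, and microbead overlapped with sham through sham 1. The mean share over the 3 microbead libraries was 1.71% ± 0.355 (SD) and that over the 3 contralateral libraries 0.404% ± 0.335. The 4 sham libraries averaged 1.16% ± 0.234 and the 4 naive libraries 0.974% ± 0.128. Adding the reads of the copies brought these 4 means to 2.00 ± 0.356, 0.453 ± 0.372, 1.25 ± 0.242 and 1.06 ± 0.144%. The 95% Wilson interval of a library's share was at most 0.0415 percentage points wide. Such intervals, and the floors below, cover counting error only, since reads are PCR copies without molecular identifiers. No test was made of these sums. In such bulk samples, fewer cells rich in these RNAs cannot be told apart from less of the RNAs per cell.

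**Figure D2:**
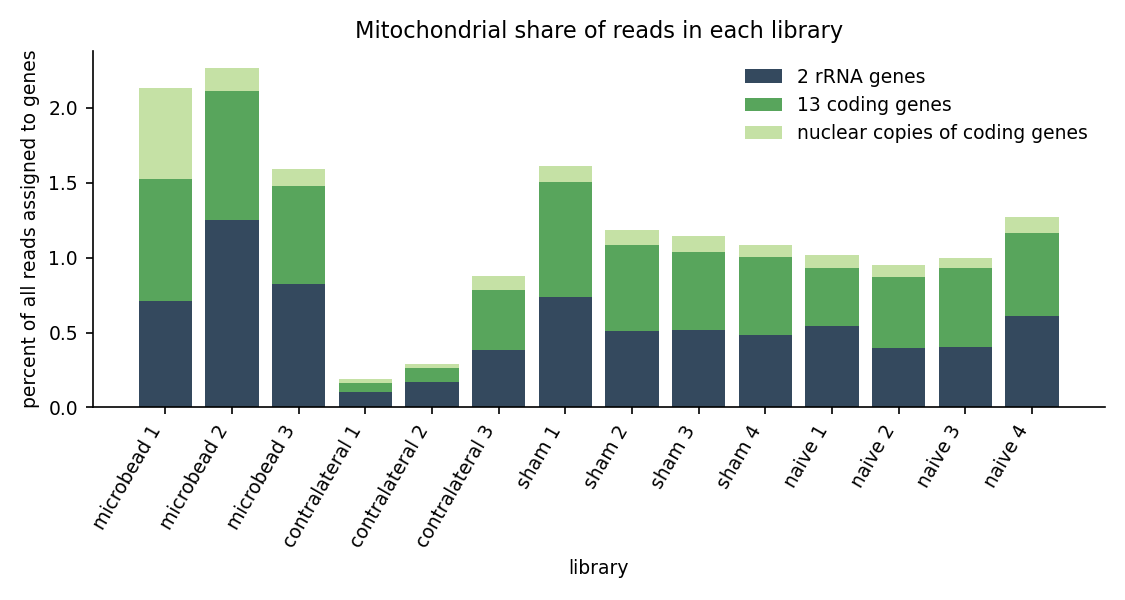
Percent of all reads assigned to genes (y axis) in each library (x axis), stacked as the 2 rRNA genes, the 13 coding genes and the reads on the nuclear copies of coding genes. The 3 contralateral bars end at 0.190 to 0.878%, below all others, and the 3 microbead bars at 1.60 to 2.27%.

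Per unit of length the members differed widely within 1 group. FPKM (reads scaled to effective length and depth, here as deposited and so without the reads on copies) in the 4 naive libraries averaged 3726 ± 782 (SD) for mt-Rnr2, the 16S rRNA of the large ribosomal subunit (chrM:1094-2675). mt-Atp6, part of the proton channel of ATP synthase, followed with 1591 ± 428, then mt-Co2 with 1350 ± 278, mt-Co1, the catalytic subunit of complex IV, with 1091 ± 231, and mt-Nd1 with 1007 ± 173. Neighbours among these 4 coding genes differed by less than the larger of their SDs, and mt-Co2 and mt-Co1 by more than the smaller one. mt-Cytb, the cytochrome b of complex III, had 745 ± 152, and mt-Nd5 and mt-Nd4 of complex I had 294 ± 84.5 and 254.5 ± 38.1. The lowest levels were those of mt-Nd2 (117 ± 8.74), mt-Nd6 (77.8 ± 14.2) and mt-Rnr1 (54.9 ± 16.1), the 12S rRNA of the small subunit. Because the libraries copy poly(A) transcripts, this order also depends on how well each RNA was captured. It need not be that of RNA amounts in the cells. FPKM of mt-Co3, mt-Nd3 and mt-Nd4l are left out of this order because their reads were mostly on the copies. mt-Atp8 is left out because its 204 bases left an effective length of only 11.6 to 24.6 bases.

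The 2 rRNAs lie next to each other on 1 precursor, with a tRNA gene between them, but mt-Rnr2 had 35.6 to 193 times the reads of mt-Rnr1. The lowest of these ratios was that of microbead 1 and the highest that of contralateral 2. rRNA reads amounted to 0.760 to 1.90 times the coding reads as deposited and to 0.498 to 1.44 times with copies summed. The deposited ratio averaged 1.20 ± 0.301 (SD, n = 3) in microbead and 1.51 ± 0.4996 (SD, n = 3) in contralateral libraries. It averaged 0.938 ± 0.0485 (SD, n = 4) in the sham group and 1.02 ± 0.279 (SD, n = 4) in the naive group. With ranges of 0.866 to 1.46 in microbead and 0.948 to 1.90 in contralateral libraries, these groups overlapped. All these ratios are of reads from poly(A) capture, and how well each rRNA was captured was not tested.

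A filter on low counts, which asks for about 10 reads in as many libraries as the smallest group has, was passed by 16 members: the 13 coding genes, both rRNA genes and 1 tRNA gene, mt-Ts1. The other 21 tRNA genes did not pass and were not tested. Fold changes below are on the log2 scale with their standard error (SE) from edgeR's quasi-likelihood test, fitted to all 14 libraries, and p-values were adjusted for all genes in the test by the Benjamini-Hochberg method and read at 0.05. The deposited fold change of mt-Nd4l is not given, since whole groups are listed at 0.

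Microbead retinas were first compared with contralateral retinas. All 16 tested members had a higher fitted level in microbead than in contralateral microglia, and 2 of them passed the threshold as deposited, both higher, where 0.028% of all genes passed in either direction and 0.021% as higher. They were mt-Co2 and mt-Rnr2, and with copies summed mt-Co3 passed as well (3 of 16, beside 0.035% of all genes and 0.028% as higher). In the joint test of a difference among the 4 groups, the same members passed: 2 as deposited, where 0.224% of all genes did, and 3 with copies summed, where 0.231% did.

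mt-Co2 encodes the complex IV subunit that accepts electrons from cytochrome c (chrM:7013-7696). As deposited it had 2683, 1035 and 939 CPM in microbead 1 to 3 and 30.8, 94.8 and 167 in contralateral 1 to 3. The groups did not overlap, and the lowest microbead library was several times the highest contralateral one. The log2 fold change was 3.99 (SE 0.53, edgeR adjusted p = 0.00756). Gm28661 held 58.4, 33.3 and 52.6% of the joint reads in the contralateral libraries but 0, 1.48 and 12.3% in the microbead libraries. With copies summed the contralateral values were 74.2, 142 and 352 CPM, the microbead values 2684, 1051 and 1072, and the log2 fold change 3.08 (SE 0.49, edgeR adjusted p = 0.0278).

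mt-Rnr2, which has no copy in that block, had 6637, 14720 and 10030 CPM in microbead and 1158, 2041 and 3403 CPM in contralateral libraries, again without overlap. Its log2 fold change was 2.25 (SE 0.36, edgeR adjusted p = 0.0358). mt-Co3 (chrM:8607-9390) with copies summed had 4528, 1604 and 1141 CPM in microbead and 88.0, 173 and 464 in contralateral libraries. Microbead 1 was far above the other microbead libraries, and the groups did not overlap. The log2 fold change was 3.32 (SE 0.54, edgeR adjusted p = 0.0278), whereas as deposited, with 0 to 92.9 CPM in the contralateral libraries, it was 3.64 with an SE of 1.49 (edgeR adjusted p = 0.375).

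All 16 members had a positive log2 fold change with copies summed, from 1.66 for mt-Cytb to 4.34 for mt-Nd3, with a median of 2.35 beside -0.08 over all genes tested. As deposited, the 15 members other than mt-Nd4l were all positive with a median of 2.45. Unadjusted p-values under 0.05 were reached by 13 of 16 members as deposited and 14 with copies summed, beside 1649 of 14279 and 1646 of 14273 genes in all. Every microbead library lay above every contralateral library for 12 members as deposited and 14 with copies summed, where 5.2 and 5.18% of all genes did so. With copies summed the 2 exceptions were mt-Cytb and mt-Nd5, through microbead 1. mt-Cytb had 513, 1440 and 865 CPM in microbead and 166, 203 and 521 in contralateral libraries. Among complex I genes, mt-Nd1 had 619, 1234 and 1139 CPM against 75.8, 94.6 and 492, a log2 fold change of 2.17 (SE 0.52, edgeR adjusted p = 0.104). mt-Rnr1 had 187, 180 and 76.3 CPM against 19.8, 10.6 and 23.3, one of 3.04 (SE 0.60, edgeR adjusted p = 0.0630). Neither passed, although the groups were separate for both.

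These calls rested on single libraries. Without contralateral 2, 0 members passed, as deposited and with copies summed, and without both libraries of few genes 0 passed, while edgeR's adjusted p of mt-Co2 was then 0.0506 as deposited and 0.150 with copies summed. Without contralateral 3, whose levels were nearest to those of the other groups, 10 members passed as deposited and 11 with copies summed, beside 0.368 and 0.355% of all genes. Without microbead 3 they were 6 and 9, beside 1.06% of all genes in both, and without microbead 1, with copies summed, 1 member (mt-Rnr2) passed. A fit to these 2 groups alone called 0. Removing the trend of level on transcript length left 2 calls as deposited and 0 with copies summed, at which the log2 fold changes of mt-Co2, mt-Co3 and mt-Rnr2 were 2.52, 2.86 and 2.28. Markers of infiltrating monocytes summed to 75.2 to 181 CPM in microbead and 2.43 to 55.6 in contralateral libraries, with 6 of 10 genes read in any library and Ly6c2, S100a8, S100a9 and F10 at 0 in all. Rod markers summed to 543 to 4517 and 2386 to 3762 CPM, and 12 of the 14 genes had reads in every library. With the rod markers as a covariate the log2 fold changes with copies summed were 3.15 for mt-Co2, 3.38 for mt-Co3 and 2.31 for mt-Rnr2, each with an edgeR adjusted p of 0.0597, and as deposited mt-Co2 alone passed (edgeR adjusted p = 0.0183). The part of the monocyte markers in the result was not tested.

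**Figure D3:**
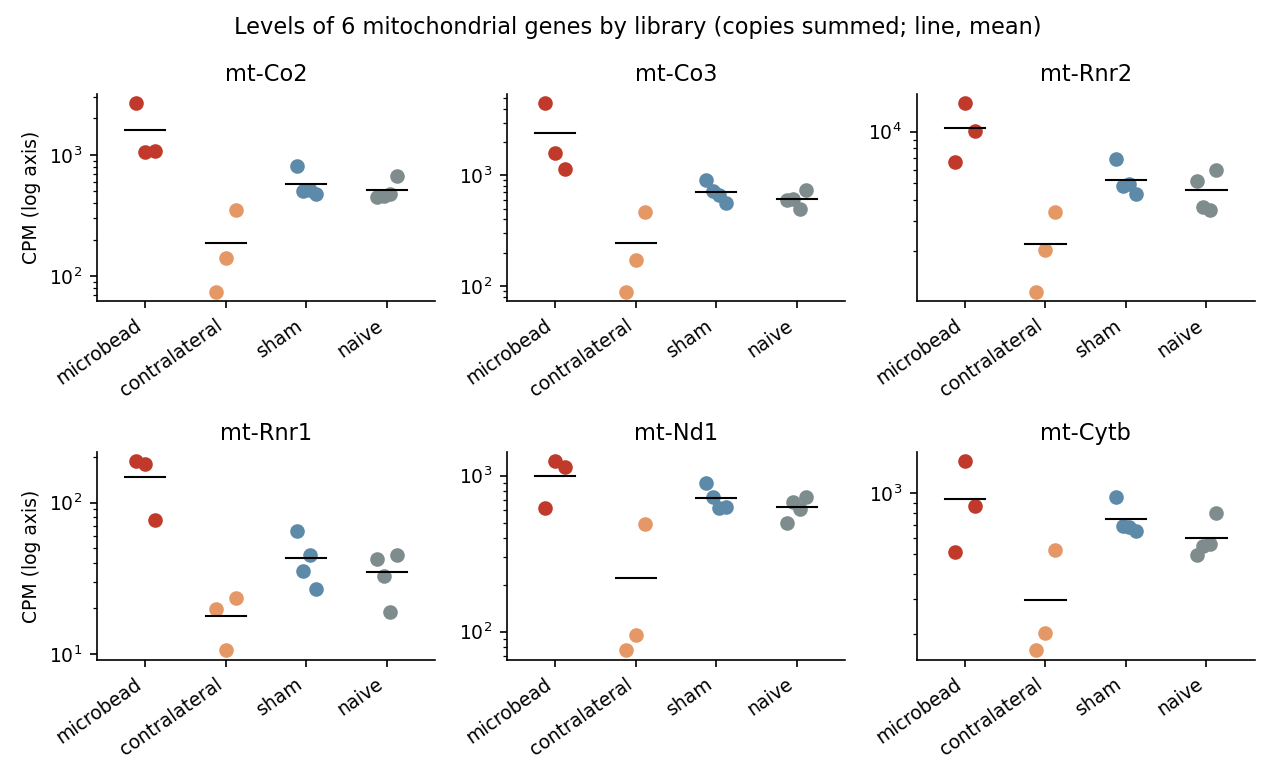
CPM with copies summed (y axis, log scale) of 6 mitochondrial genes by group (x axis), 1 point per library with a line at the group mean. All contralateral points lie below the naive ones for mt-Co2, mt-Co3, mt-Rnr2 and mt-Nd1, and the naive range is reached by contralateral 1 and 3 for mt-Rnr1 (19.8 and 23.3 CPM) and by contralateral 3 for mt-Cytb (521 CPM).

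Microbead retinas were then compared with the naive and the sham ones, which gave no call. In microbead against naive libraries 0 of 16 members passed edgeR's threshold, as deposited and with copies summed, where 0.21% of all genes passed; unadjusted p-values under 0.05 numbered 6 and 9 of 16, beside 1504 genes of all tested in both. The median log2 fold change of the members was 1.15 with copies summed (1.20 as deposited over 15) beside -0.14 over all genes. It was 0.82 with the length trend removed, with copies summed. mt-Co3 came closest to the threshold with copies summed: the naive libraries had 598, 612, 499 and 742 CPM, all below the lowest microbead library at 1141, for a log2 fold change of 1.98 (SE 0.46, edgeR adjusted p = 0.0804). mt-Rnr1 followed with naive values of 42.3, 32.9, 18.8 and 45.1 CPM and a log2 fold change of 2.08 (SE 0.52, edgeR adjusted p = 0.0977). mt-Rnr2 had 5132, 3620, 3494 and 5955 CPM in naive libraries, below the 6640 of microbead 1, and a log2 fold change of 1.20 (SE 0.32, edgeR adjusted p = 0.127). mt-Nd5, the proton-pumping subunit at the end of complex I's membrane arm, was lowest at 0.36 (SE 0.50), and microbead 1, at 194 CPM, lay below all 4 naive libraries (297 to 535). Microbead lay wholly above naive for 8 members as deposited and 10 with copies summed, beside 4.85 and 4.86% of all genes.

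Microbead against sham, the comparison that shares the act of injection, gave 0 of 16 members past edgeR's threshold, beside 0.014% of all genes. Unadjusted p-values under 0.05 numbered 6 of 16 both as deposited and with copies summed, beside 1392 and 1391 genes of all tested. The members behind these equal counts differed in part. Those as deposited include mt-Nd4l, listed at 3.5 CPM in microbead 3 and at 0 in every other microbead and sham library. The median log2 fold change was 0.96 with copies summed, beside -0.12 over all genes, and 0.57 with the length trend removed. The members ranged from 0.02 for mt-Nd5, whose sign turned under several alternatives, to 2.31 for mt-Nd3. mt-Co3 had 911, 716, 664 and 561 CPM in sham libraries with copies summed and a log2 fold change of 1.76 (SE 0.46, edgeR adjusted p = 0.129), and mt-Co2 had 814, 504, 517 and 472 CPM and one of 1.47 (SE 0.42, edgeR adjusted p = 0.190). Sham 1 was the highest sham library for both, still below all microbead libraries. Groups were separate, with microbead above, for 8 members as deposited and 9 with copies summed, beside 5.11 and 5.14% of all genes. Sham against naive libraries gave 0 members past edgeR's threshold (0% of all genes), with 1 unadjusted p under 0.05 as deposited (mt-Nd4l, listed at 0 in all sham and 2 naive libraries) and 0 with copies summed, beside 380 and 379 genes of all tested. Only mt-Nd2 was separate, at 99.1 to 130 CPM in sham and 72.7 to 94.3 in naive libraries, where 1.61% of all genes (1.6% with copies summed) had every sham library higher.

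The contralateral retinas had the lowest mean CPM of the 4 groups for all 16 members with copies summed, and no difference from naive or sham retinas passed. Against naive libraries all 16 members had a negative log2 fold change with copies summed, from -1.88 for mt-Nd3 to -0.74 for mt-Nd4l, with a median of -1.23 beside -0.06 over all genes. Against sham libraries all 16 were negative too, with a median of -1.39 beside -0.04. edgeR called 0 members and 0% of all genes in both comparisons, and unadjusted p-values under 0.05 were reached by 11 members against naive and 12 against sham with copies summed (9 and 10 as deposited, when 740 and 694 of all genes did). Every contralateral library was below every sham library for 13 members as deposited and 14 with copies summed, where 3.88 and 3.87% of all genes were. Against naive these were 5 and 8 members, beside 3.73 and 3.74%. The comparisons with contralateral retinas share those 3 libraries, so that they are not separate evidence.

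Contralateral 1 and 2 carried most of this. mt-Nd1 had 75.8 and 94.6 CPM in them and 492 in contralateral 3, where the naive libraries had 498 to 731. mt-Atp6 with copies summed had 92.7 and 124 CPM in them against 530 in contralateral 3, which lay within the naive range of 519 to 811. Without contralateral 3, edgeR called 5 members lower than naive and 9 lower than sham as deposited, where 0.0723 and 0.138% of all genes passed in either direction. With copies summed these were 4 and 8, beside 0.0658 and 0.132%. Without contralateral 1 or contralateral 2 the count was 0 in both comparisons. mt-Rnr2 differed less among these libraries than mt-Nd1 did, with 1160, 2040 and 3402 CPM, and all 3 lay below the lowest naive library at 3494.

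**Figure D4:**
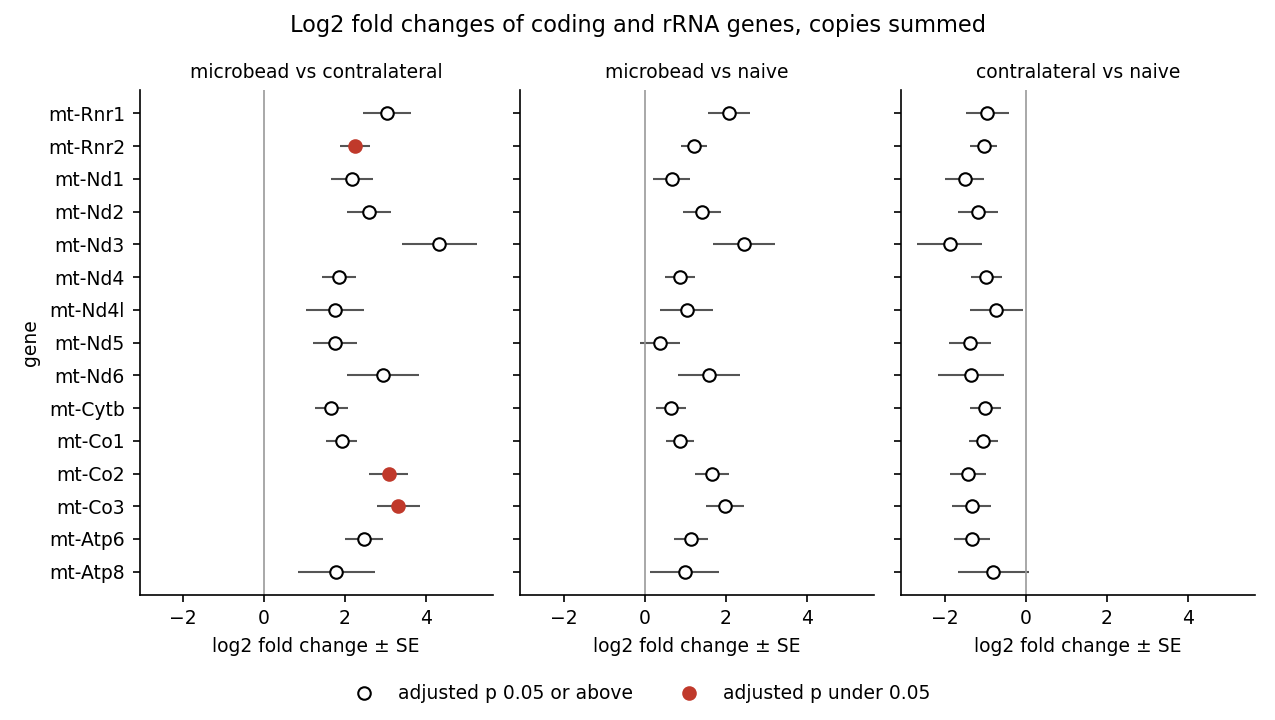
Log2 fold change (x axis) of 13 coding and 2 rRNA genes (y axis) with copies summed in 3 comparisons that share libraries in pairs. Bars are SE from edgeR, filled points have an adjusted p under 0.05 (mt-Rnr2, mt-Co2 and mt-Co3 in microbead against contralateral), and all points lie to the right of 0 in the first 2 panels and to the left in the third.

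In the make-up of the coding reads, microbead 1 lay outside the range of the other 13 libraries for most genes. With copies summed, mt-Co1 was 26.9 to 34.2% of coding reads in the 13, mt-Co3 8.85 to 13.3%, mt-Co2 7.47 to 11.4% and mt-Nd3 0.132 to 1.16%. In microbead 1 mt-Co1 was 15.5% of the coding reads, while mt-Co3 made up 33.0%, mt-Co2 19.6% and mt-Nd3 5.26%. mt-Cytb and mt-Nd5 were below the range of the others there: mt-Cytb was 3.74% of its coding reads against 9.21 to 16.7% elsewhere, and mt-Nd5 1.42% against 5.57 to 10.3%. Complex IV genes together made up 68.1% in microbead 1 and 47.1 to 56.3% in the other 13. Annotated length minus effective length, which follows the mean fragment length of a library, was 238 bases in microbead 1 and 260 to 301 bases in the others. The deposited values showed the shift of mt-Co2 (34.1% against at most 12.1%) but hid part of that of mt-Co3 (9.58% against at most 8.63%). The part of fragment length in this make-up was not tested.

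**Figure D5:**
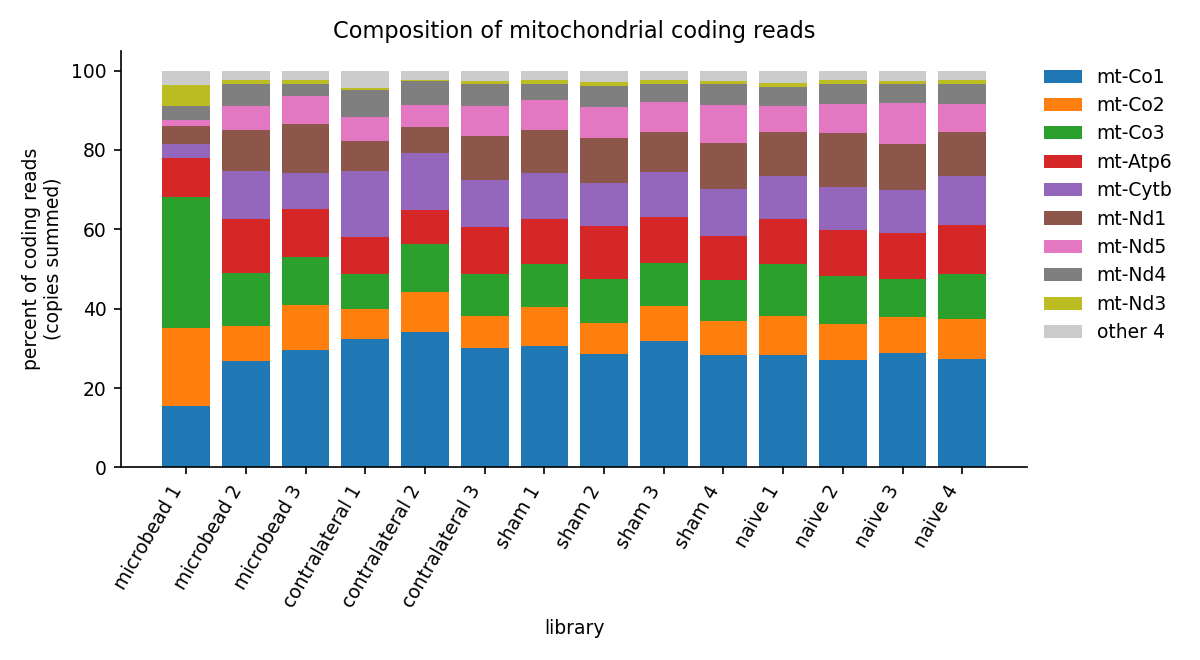
Percent of mitochondrial coding reads with copies summed (y axis) by gene in each library (x axis), with mt-Nd2, mt-Nd4l, mt-Nd6 and mt-Atp8 pooled as other 4. Microbead 1 differs from the other 13 bars by its small mt-Co1 (15.5%) and large mt-Co3 (33.0%) parts.

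mt-Nd6 of complex I is the 1 coding gene on the minus strand of the reference (chrM:13552-14070), and it overlaps mt-Nd5 on the plus strand by 14 bases. Its FPKM was 352, 156 and 64.3 in the microbead libraries and 21.6, 11.3 and 52.4 in the contralateral ones. The sham group spanned 58.7 to 77.1 and the naive group 68.4 to 98.8, so microbead 3 lay within the sham range and below the naive one on this scale. In CPM, which takes no account of length but is scaled by TMM, microbead 3 had 18.4 as deposited, above the sham libraries (12.6 to 17.6) and within the naive range (14.5 to 22.6). The median FPKM of the other 12 coding genes was 2.10 to 11.9 times higher, with the smallest factors in microbead 1 (2.10) and contralateral 1 (2.69). mt-Nd6 had 21 to 384 reads per library, fewer than most coding members. Its log2 fold change in microbead against contralateral was 2.94 (SE 0.89, edgeR adjusted p = 0.207). The sources used here do not say whether counting used strand, so reads from antisense RNA cannot be told apart from those of the gene.

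mt-Atp8 encodes a small subunit of ATP synthase (chrM:7766-7969). Its last 43 bases, shown in capitals, are also the first of mt-Atp6, so reads there belong to both genes.
mt-Atp8: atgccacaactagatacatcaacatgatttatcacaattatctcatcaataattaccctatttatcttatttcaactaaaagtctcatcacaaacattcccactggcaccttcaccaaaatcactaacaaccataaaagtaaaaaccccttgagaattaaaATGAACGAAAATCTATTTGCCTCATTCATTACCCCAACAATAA
It had 27.0 to 314 reads per library, against 476 to 14861.5 for mt-Atp6. With copies summed it had 21.6, 23.1 and 27.6 CPM in the microbead libraries and 5.14, 6.15 and 9.59 in the contralateral ones. The sham group spanned 11.7 to 19.1 CPM and the naive group 10.03 to 15.6. Microbead was above every other library and contralateral below, a pattern that did not pass in microbead against contralateral (log2 fold change 1.79, SE 0.95, edgeR adjusted p = 0.478).

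The 22 tRNA genes, of 59 to 75 bases, gave 170 reads in all 14 libraries together, and 13 of them gave none. All 22 have an effective length and an FPKM of 0 in the deposited tables, so the series-wide table lists them at 0 whether or not they had reads. Of the 170 reads, 138 were on mt-Ts1, a serine tRNA gene on the minus strand whose end overlaps mt-Co1 on the other strand by 3 bases, in capitals below. The next, with 12 reads, was mt-Tq, a glutamine tRNA gene that overlaps mt-Ti on the other strand by 3 bases, in capitals as well.
mt-Ts1 (chrM:6870-6938, minus strand): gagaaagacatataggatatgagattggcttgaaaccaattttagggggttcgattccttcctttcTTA
mt-Tq (chrM:3772-3842, minus strand): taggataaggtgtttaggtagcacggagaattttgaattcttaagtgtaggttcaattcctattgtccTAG
mt-Ts1 had 7, 13 and 17 reads in microbead 1 to 3 and 4, 3 and 3 in contralateral 1 to 3. Sham 1 to 4 had 9, 11, 7 and 15 reads and naive 1 to 4 had 13, 9, 12 and 15. Its log2 fold change in microbead against contralateral was 2.45 with an SE of 1.75 (edgeR adjusted p = 0.610), and the groups did not overlap in CPM. The 8 tRNA genes of the minus strand held 97.1% of the tRNA reads (165, on 6 genes), and the 14 of the plus strand 5 reads on 3 genes. Apart from mt-Ts1 the minus strand had 27 reads. Whether counting used strand is not stated, so reads of RNA from the other strand cannot be told apart from those of these genes. At mt-Ts1 such RNA could be RNA that runs on past mt-Co1, which was not tested. The split is thus one by annotated strand only. Relative to library depth, tRNA reads came to 12.7 CPM (without TMM) in microbead 1 (95% Wilson interval 7.92 to 20.3) and 0.214 to 2.27 in the other 13. A tRNA gene without reads could have had up to 0.214 to 2.24 CPM, the value of 3 reads, depending on the library. tRNAs end in no poly(A) tail, and their level in cells cannot be read from these counts.

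Nuclear genes of the same pathways were read as lists. Of 71 tested nuclear genes for subunits of complexes I, III, IV and V, 2 rose in microbead against naive (Cox4i1 and Cox8a, subunits of complex IV) and 0 fell, where 0.189% of all genes rose. Their median log2 fold change was 0.99 in microbead against naive, beside -0.14 over all genes. It was 0.94 in microbead against sham (all genes -0.12) and 0.92 in microbead against contralateral (all genes -0.08). In contralateral against naive it was 0.09 (all genes -0.06), where the mitochondrial members stood at -1.23. The difference between these lists was not tested. In every microbead library, genes of at most 1000 bases were higher relative to those over 4000 bases. This rise was 0.79 to 1.90 in log2 against the naive mean. The part of gene length in the medians of the subunit genes was not tested. Of 60 genes for mitochondrial transcription, RNA processing and DNA maintenance, 58 were tested, and edgeR called 0 in each of the 6 comparisons, with 2 to 6 at an unadjusted p under 0.05. The 6 were in microbead against contralateral, where 1649 of all 14279 genes were under 0.05, a like share. Their median in microbead against naive was -0.06 beside -0.14 over all genes. Tfam, which packages mitochondrial DNA and starts its transcription, had a log2 fold change there of 1.13 (SE 1.13, edgeR adjusted p = 0.817). Polrmt, the mitochondrial RNA polymerase, had 0.60 (SE 1.22, edgeR adjusted p = 0.944) and Lrpprc, which stabilises mitochondrial mRNAs, -0.78 (SE 0.74, edgeR adjusted p = 0.797). The 4 smallest p-values of this list belonged to the rRNA methyltransferase gene Mrm3, the RNA helicase gene Dhx30, the DNA ligase gene Lig3 and Slirp, the partner of Lrpprc, with edgeR adjusted p = 0.377 to 0.427. Mrm3, Dhx30 and Lig3 were lower in microbead, with log2 fold changes of -7.41 (SE 2.82), -1.57 (SE 0.62) and -3.40 (SE 1.38). Slirp was higher, at 1.77 (SE 0.75). Slirp had 86.2, 27.4 and 43.1 CPM in microbead and 9.90 to 25.3 in naive libraries and did not pass.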

How the data were processed

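Counts came from 1 table per library, in which the authors deposited unscaled expected counts (a program's estimate of the reads of each gene), per the file headers. FPKM, scaled by the authors to effective length and mapped reads, stand in the same deposited tables, and the series-wide deposited table repeats them. Per the submitters' processing notes, Salmon 1.4.0, R 4.0.3, DESeq2 1.30.1 and build mm10 were used, with no roles named. The program that wrote the tables and its strand setting are not given in the sources used here.

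Members were taken by symbol and matched by identifier. Copies were found by comparing the 37 transcripts of GENCODE M21 with all others, and sequences come from that release. Tests used rounded expected counts and edgeR 4.0.16 under R 4.3.3 (filterByExpr with a minimum count of 10, TMM scaling, robust quasi-likelihood fit with 1 coefficient per group and 10 residual degrees of freedom), which tested 14279 genes as deposited and 14273 with the copies of chromosome 1 added to their gene. Shares are percent of a library's expected counts. In simulated data for microbead against contralateral (13672 genes), 72, 48, 12 and 0% of genes with true log2 changes of 4, 3, 2 and 1 were called. For changes of -4, -3, -2 and -1 these were 52, 16, 16 and 0% (25 genes each), with 2 false calls. The changed genes were drawn at random from all genes above a minimum mean level, each with its own estimated spread. The rates are averages over such genes and need not hold for the members.

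All 13 coding and both rRNA members are named, tRNA members by counts, and of the nuclear machinery list the 4 genes with the smallest p in microbead against naive with Tfam, Polrmt and Lrpprc. Members and lists were chosen with earlier results of these data known. Alternatives were DESeq2 1.42.0 (size factors, Wald test), limma 3.58.1 (voom with quality weights), other filters, totals and scalings, a rod covariate, removal of a lowess length trend, the replicate number as a block, the compared groups alone and leaving out libraries. Adding the copies, and each alternative with them, was decided after the data had been seen.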

Additional observations from a re-analysis of the deposited data

Results flagged for a closer look

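With 4 libraries in a group, a library was taken as far from the rest when the gap to its neighbour, divided by the group's range, was above Dixon's critical value. Over 88 such groups of values (sham and naive), 9 did, where chance gives about 1 in 20 groups, and many of the values share reads. In sham, library 1 was highest in 6 of them. It held 1.51% of its reads on the 37 genes (others 1.00 to 1.09%) and 0.735% on rRNA (others 0.481 to 0.517%). Its mt-Co2 level was 812 CPM as deposited (others 472 to 517) and 814 with copies summed (others 472 to 517), and its mt-Cytb level 964 CPM as deposited (others 651 to 688) and 963 with copies summed (others 651 to 688). Sham 2 had the highest share of complex V genes among coding reads with copies summed, 13.5% (others 11.4 to 11.6%). Naive 4 was highest for mt-Co2 with copies summed, at 665 CPM (others 449 to 472), and for the share of mt-Cytb, the complex III gene, in coding reads with copies summed, at 12.2% (others 10.7 to 10.8%).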

How the results depend on the processing

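Counts of members past the threshold are given first as deposited and then with copies summed. In microbead against contralateral they were 2 and 3, and became 12 and 15 with the Wald test of DESeq2 (beside 4.51 and 4.56% of all genes), 11 and 12 with no filter (0.612% in both), 1 and 1 with voom, 1 and 0 with at least 50 reads, 1 and 0 with the rod covariate, 0 and 0 with the compared groups alone, 0 and 0 without the 2 libraries under 12000 genes, and 0 with the length trend removed and copies summed. Leaving out single libraries gave 0 to 10 and 0 to 11. For the joint difference among the 4 groups, 2 and 3 members passed (0.224 and 0.231% of all genes), and no filter gave 11 and 12 (1.22% of all genes in both), voom 4 and 6 (0.609 and 0.603%), at least 50 reads 1 as deposited, the rod covariate 1 and 0, the length trend removed 0 and 0, the 2 libraries left out 0 and 0, and single libraries left out 0 to 11 and 0 to 12. Where 0 members passed, the Wald test gave 3 and 5 in microbead against naive (3.97 and 4.01% of all genes), 1 and 4 in microbead against sham (3.17% in both), and 1 as deposited in contralateral against naive (0.448%) and in contralateral against sham (0.413%). No filter gave 4 and 4, 3 and 4, 5 and 6, and 8 and 8 in these 4 comparisons, beside 0.631, 0.542, 0.0819 and 0.0857% of all genes as deposited. voom gave 4 and 6 in microbead against naive (1.43% of all genes in both) and 1 and 1 in microbead against sham (0.623 and 0.624%). Leaving out single libraries gave 0 to 1 and 0 to 2, 0 to 0 and 0 to 1, 0 to 5 and 0 to 4, and 0 to 9 and 0 to 8. The cause of these changes was not tested. Scaling by DESeq2's size factors, scaling on nuclear genes and leaving out genes absent from the series table kept every count within 1.5 times. The Wald test was not run for the joint difference.

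The replicate block took the counts of microbead against contralateral and of the joint difference to 0 and 0. Same-numbered libraries correlated at -0.046 to 0.108 in their deviations. The best correlation was with the own number for 4 of 6 libraries in microbead against sham, microbead against naive and contralateral against naive. It was so for 2 of 6 in microbead against contralateral, 0 of 6 in contralateral against sham and 2 of 8 in sham against naive. With so few libraries a group, these correlations cannot decide whether the numbers mark pairs. The numbers were not taken as pairs because no label ties a number to a mouse.

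Log2 fold changes of single genes changed sign in microbead against sham only, of the 5 comparisons with microbead or contralateral libraries. As deposited, mt-Nd5 was -0.024 with at least 50 reads, -0.019 with no filter, -0.17 with the block, -0.021 with the rod covariate, and -0.332, -0.175 and -0.04 without microbead 2, microbead 3 and sham 3. With copies summed these were -0.024, -0.019, -0.169, -0.02, -0.331, -0.175 and -0.04. mt-Co1 was -0.047 with the block and -0.185 and -0.001 without microbead 2 and 3, mt-Cytb -0.144 (-0.142 with copies summed) without microbead 2, mt-Nd3 -0.115 without the 2 libraries and -0.116 without microbead 1, and mt-Atp8 -0.04 (-0.041 with copies summed) with the length trend removed. The highest values with a library left out were 0.394 for mt-Nd5, 0.54 for mt-Co1 as deposited, 0.603 for mt-Cytb and 1.618 for mt-Nd3 as deposited.

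The mean share of reads became 1.19% in naive and 2.10% in microbead over genes of the series table. Without rRNA it was 0.487, 0.598, 0.185 and 0.777% in naive, sham, contralateral and microbead. With FPKM it was 1.51% in naive, 1.81% in sham, 0.600% in contralateral and 2.13% in microbead. Leaving out single libraries gave 0.213 to 0.524% in contralateral, 1.502 to 1.822% in microbead, 0.912 to 1.01% in naive and 1.04 to 1.21% in sham. The mean rRNA ratio with FPKM was 0.483 in naive, 0.450 in sham, 0.706 in contralateral and 0.530 in microbead, and 0.805 in sham with copies summed. The tRNA ratio has no FPKM version because all tRNA values are 0. With copies summed, complex I made up 27.9, 27.2, 24.2 and 22.9% of coding reads in naive, sham, contralateral and microbead, complex III 11.1, 11.4 and 14.2% in the first 3, complex IV 49.0, 49.4, 51.2 and 56.7%, and complex V 10.4 and 12.1% in contralateral and microbead. Depth was low for the tRNA genes, mt-Nd4l, mt-Nd3, mt-Nd6 and mt-Atp8.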
